A study of Mus musculus with 10 samples.

Results

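The cytoplasmic ribosomal protein genes were taken as the rows of the expression table whose gene name is Rpl or Rps followed by a number, with the letters a, x or l allowed after it, or is Rpsa or Rplp0 to Rplp2. The rule found 78 of the 21437 rows, 47 named for the large and 31 for the small ribosomal subunit. Of these, 69 were core ribosomal protein genes, 6 were paralogues with a name of their own (Rpl7l1, Rpl10l, Rpl22l1, Rpl36al, Rpl39l and Rps27l), and 3 (Rpl6l, Rps12l1 and Rps4l) are annotated as processed pseudogenes in GENCODE M21 although their names carry no pseudogene suffix. The study asked how Argonaute 2 takes part in the clearance of maternal mRNA in mouse early embryos. RNA-seq was performed on MII oocytes (16 h after hCG), middle 2-cell embryos (40 h) and early 4-cell embryos (55 h), with 2 libraries in each of 5 groups. The labels give every sample as ICR and wild type or Ago2 kd, from females 7 weeks old, whereas the Methods give ICR females for the oocytes and crosses of F1 mice for the embryos, so strain and stage cannot be told apart between oocytes and embryos. Ago2 kd embryos had received siRNA against Ago2 and, by the study's results text, AGO2 antibodies as zygotes, and the Methods name a scrambled siRNA as negative control. Both treated stages were therefore injected embryos carrying a transient knockdown and not a deletion. The number of oocytes or embryos pooled in a library is not given in the sources used here, and Ago2 itself was not analysed here, so the labels were not checked on the targeted gene.

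Ribosomal proteins assemble with ribosomal RNA into the large and the small subunit, and most cells make them in near equal numbers because each ribosome holds a single copy of most of them. Growing oocytes build a large store of ribosomes, and the embryo starts to make its own when its genome is activated. Many ribosomal protein mRNAs begin with a cytosine and a run of pyrimidines, the TOP motif, through which the mTOR pathway and Larp1 set their translation, and their genes have left many processed pseudogenes in the mouse genome.

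The labels do not say that the 2 libraries of a group came from separate animals or cultures, so p-values measure the spread between these libraries, which may be technical. The values are FPKM, fragments scaled to exon length and to the number of mapped fragments, made by the authors. They hold no read numbers, so depth and counting error are unknown, and precision was judged from the spread between 2 libraries. An exact 0 can be a failed estimate and is written as listed at 0, since Gapdh, which most cells express highly, was listed at no more than 0.167 FPKM in any library. Oocyte markers (8 genes) summed to 13510 and 15624 FPKM in MII oocytes, 1374 to 1765 FPKM in 2-cell embryos and 5.38 to 36.8 FPKM in 4-cell embryos. Among these 8, Bmp15 had 605 and 449 FPKM in MII oocytes and 787 and 436 FPKM in 2-cell controls, which overlap. Zp1 was at most 0.569 FPKM in any library. The 5 markers of 2-cell embryos summed to at most 0.113 FPKM in MII oocytes, 316 and 485 FPKM in 2-cell controls and 71.2 and 145 FPKM in 4-cell controls. They were uneven, since Zfp352 had 197 and 290.4 FPKM in 2-cell controls, Zscan4d and Gm5662 were each listed at 0 in all 2-cell libraries but 1, and Tdpoz4 had 48.3 and 62.3 FPKM in 2-cell and 65.0 and 145 FPKM in 4-cell controls. Foxl2, the marker of cumulus and granulosa cells analysed here, was listed at 0 in every library, and of the sperm markers Prm1 was at most 0.125 FPKM and Prm2 at most 1.78 FPKM.

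To show what the genes share at their starts, the 50 bases around the RefSeq start site (GRCm38.p6, 30 before it and 20 from it) were read for the 57 members that the promoter table holds. A TOP-like tract, read on the transcript strand as C followed by at least 4 of C or T and beginning within 10 bases of the annotated start, was present in 29 of 57 members (50.9%), against 7590 of 27025 promoters of all genes (28.1%). The tracts of the members were 5 to 20 bases long (median 8). The following windows belong to the genes that the comparisons below turn on, with the tract in capitals.
Rps6 (chr4:86857348-86857397, minus strand): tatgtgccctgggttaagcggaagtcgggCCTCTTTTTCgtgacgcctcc
Rps9 (chr7:3704011-3704060, plus strand): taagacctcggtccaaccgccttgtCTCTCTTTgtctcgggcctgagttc
Rps15a (chr7:118116128-118116177, minus strand): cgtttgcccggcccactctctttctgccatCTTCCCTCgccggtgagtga
Rps18 (chr17:33955646-33955695, minus strand): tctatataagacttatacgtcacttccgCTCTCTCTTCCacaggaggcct
Rps26 (chr10:128626487-128626536, minus strand): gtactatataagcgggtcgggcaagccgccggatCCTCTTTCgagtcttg
Rps3a1 (chr3:86142649-86142698, minus strand): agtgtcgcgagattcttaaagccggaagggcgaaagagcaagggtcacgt
Rpl7l1 (chr17:46782637-46782686, minus strand): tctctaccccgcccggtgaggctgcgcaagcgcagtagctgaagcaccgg
Rps27l (chr9:66946056-66946105, plus strand): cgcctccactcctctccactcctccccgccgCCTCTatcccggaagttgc
Rps6, Rps9, Rps15a, Rps18 and Rps26 held tracts of 10, 8, 8, 11 and 8 bases. Rps27l held a tract of 5 bases, and Rps3a1 and Rpl7l1 held none within this window. Among the members called higher in 4-cell than in 2-cell controls, 11 of the 19 with a promoter had the tract, and among the other members 18 of 38 had it.

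The rows of the ribosomal protein genes held the smallest share of FPKM in MII oocytes and the largest in 4-cell embryos, with listed zeros read as given. They summed to 387 and 545 FPKM in MII oocytes, 413 and 743 FPKM in 2-cell controls, and 2322 and 1462 FPKM in 4-cell controls. As a share of all FPKM of a library this was 0.0859% and 0.119% in MII oocytes, 0.210% and 0.365% in 2-cell controls, and 0.864% and 0.606% in 4-cell controls. By share the 3 groups followed in this order without overlap, whereas the sums of oocytes and 2-cell controls overlapped. The FPKM of all rows summed to 450124 and 458874 in MII oocytes. They summed to 196312 and 203645 in 2-cell controls and 268660 and 241317 in 4-cell controls. The smaller total of the 2-cell libraries therefore enters the step in share from oocytes to 2-cell controls. A single gene, Rps27l, made up most of the sum in MII oocytes. Without it the shares were 0.0235% and 0.0282% in MII oocytes, 0.0634% and 0.181% in 2-cell controls, and 0.822% and 0.549% in 4-cell controls. The sums without it were 106 and 129 FPKM in MII oocytes and 125 and 368 FPKM in 2-cell controls, which overlap. In 4-cell controls they were 2209 and 1326 FPKM. In bulk libraries, fewer cells with an mRNA and less of it per cell cannot be told apart.

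**Figure D1:**
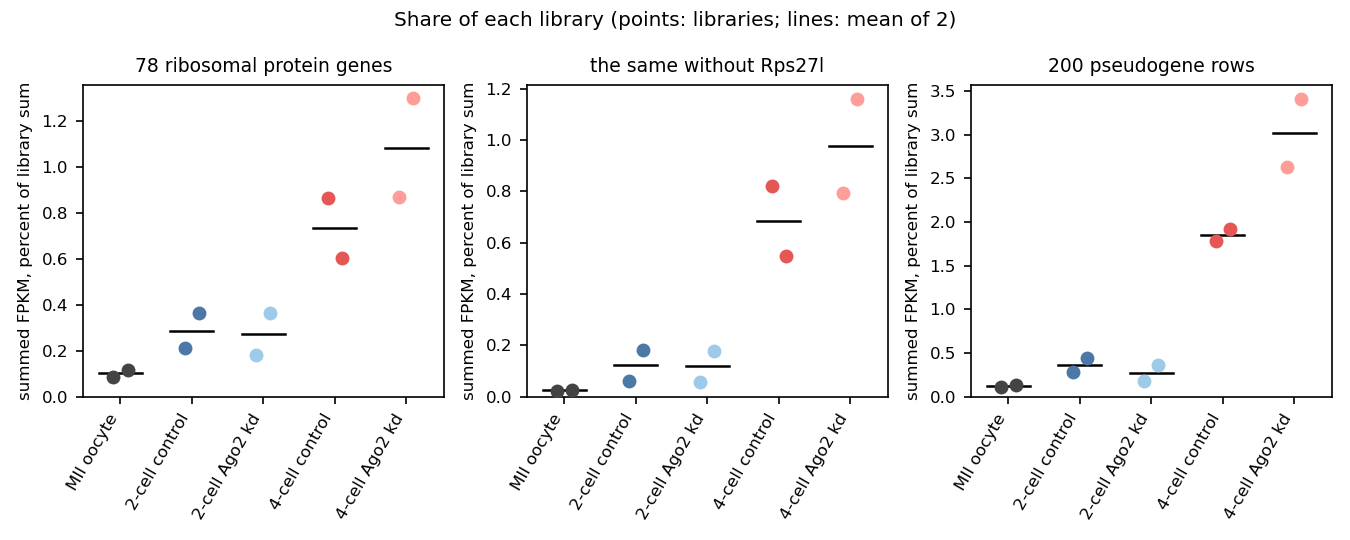
Summed FPKM of the 78 ribosomal protein genes, of the same genes without Rps27l, and of 200 pseudogene rows of the family, as a percent of the FPKM sum of each library (y axes, each from 0). Points are libraries and lines the mean of 2. In all 3 panels both 4-cell control libraries lie above both 2-cell control libraries, which lie above both MII oocyte libraries.

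At least 1 FPKM was reached by 8 and 10 members in the MII oocyte libraries, 18 and 25 in 2-cell controls, and 57 and 52 in 4-cell controls, while the share of all rows at that level stayed between 22.8% and 27.2% in the 10 libraries. The MII oocyte libraries listed 57 and 59 members at 0, where 49.7% and 51.5% of all rows were listed at 0. In both of these libraries 52 members were listed at 0 and 68 were below 1 FPKM. Of the 47 members below 1 FPKM in all 6 MII oocyte and 2-cell libraries, 22 had at least 1 FPKM in both 4-cell controls. Counts over both or all 6 of these libraries were not made for all rows, so they describe the members only. Only 5 members had at least 1 FPKM in all 10 libraries, among them Rps27l, Rpl32 (a large subunit protein) and Rps14. Another 5, among them Rpl13a, Rpl14, Rpl18 and Rpl38, were listed at 0 throughout, and 11 in all never reached 1 FPKM. Rpl32 had 5.01 and 10.8 FPKM in MII oocytes, 17.6 and 28.9 in 2-cell controls and 193 and 14.8 in 4-cell controls, so its 4-cell libraries differed widely. The level of other single genes also moved between replicates. Rpl4, a large subunit protein and among the highest members, had 60.4 and 61.9 FPKM in MII oocytes, 0 and 109 FPKM in 2-cell controls and 327 and 249 FPKM in 4-cell controls, and was listed at 0 in 1 of the 4-cell Ago2 kd libraries and at 439 FPKM in the other.

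**Figure D2:**
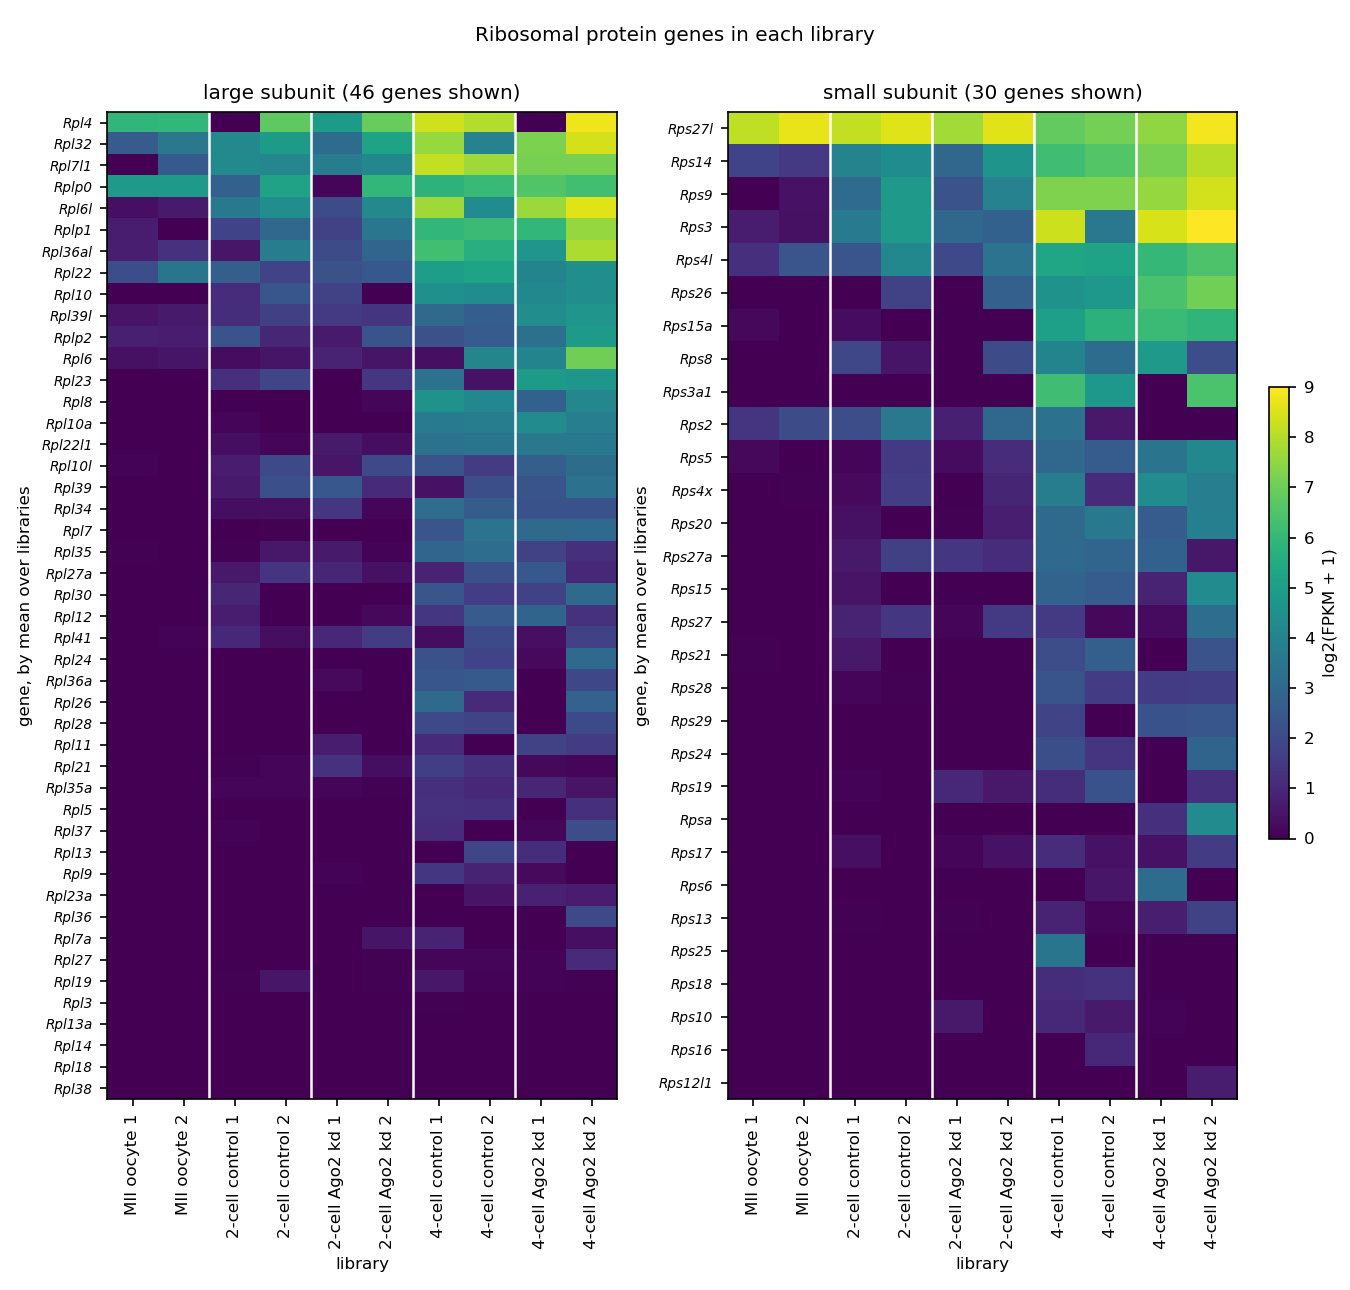
Level of 76 of the 78 ribosomal protein genes (rows, large and small subunit, ordered by their mean) in each of the 10 libraries (columns), as log2(FPKM + 1) on the colour scale. Most rows are dark in MII oocyte and 2-cell libraries and lighter in 4-cell libraries, with Rps27l high in all 10 and Rpl13a, Rpl14, Rpl18 and Rpl38 listed at 0 throughout.

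Testing was kept to genes that reached 1 FPKM in 2 or more libraries, which left 60 of the 78 members and 8726 genes in all. The filter passes genes that are high in 1 group only, so counts over these 60 describe them and are not support for a rise. Values were compared as log2(FPKM + 1), and differences on this scale understate the change of low genes. An exact two-sided permutation test of a single gene with groups of 2 cannot go below p = 0.333, so the spread was shared over genes and groups with limma. A gene was called at a Benjamini-Hochberg adjusted p below 0.05 over all 8726 genes.

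From MII oocytes to 2-cell controls, 3 members rose (Rps9, Rps14 and Rpl7l1) and none fell, while 7 were higher and 0 lower before adjustment (p below 0.05). Among all genes tested, 6.54% were called higher and 14.2% lower, so 3 of 60 is near the share of all genes for rises. Rps9 (ENSMUSG00000006333.14, chr7:3703993-3706897), a small subunit protein at the mRNA entry site, had 0 and 0.346 FPKM in MII oocytes and 7.77 and 27.9 FPKM in 2-cell controls. The difference was 3.78 on the log2(FPKM + 1) scale (SE 0.75, adjusted p = 0.0129, limma with Benjamini-Hochberg adjustment). Rps14 (ENSMUSG00000024608.11), a small subunit protein whose loss in humans is tied to a form of myelodysplastic anaemia, rose from 2.49 and 1.83 FPKM to 15.1 and 19.8 FPKM, by 2.54 (SE 0.60, adjusted p = 0.0255, limma). Rpl7l1 (ENSMUSG00000063888.7, chr17:46773907-46782672), a paralogue of Rpl7, rose from 0 and 4.90 FPKM to 18.6 and 16.8 FPKM, by 2.94 (SE 0.76, adjusted p = 0.035, limma). In each of these genes both 2-cell libraries lay above both oocyte libraries. The median difference over all 78 members was 0.05, against 0 over all rows of the table. The count rested on single libraries, being 0 without 2-cell control replicate 2 and 1 without 2-cell control replicate 1 or without either MII oocyte library. With each library scaled to the same sum, the median of all genes tested shifted from -0.06 to 0.38, and 7 members were called higher.

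**Figure D3:**
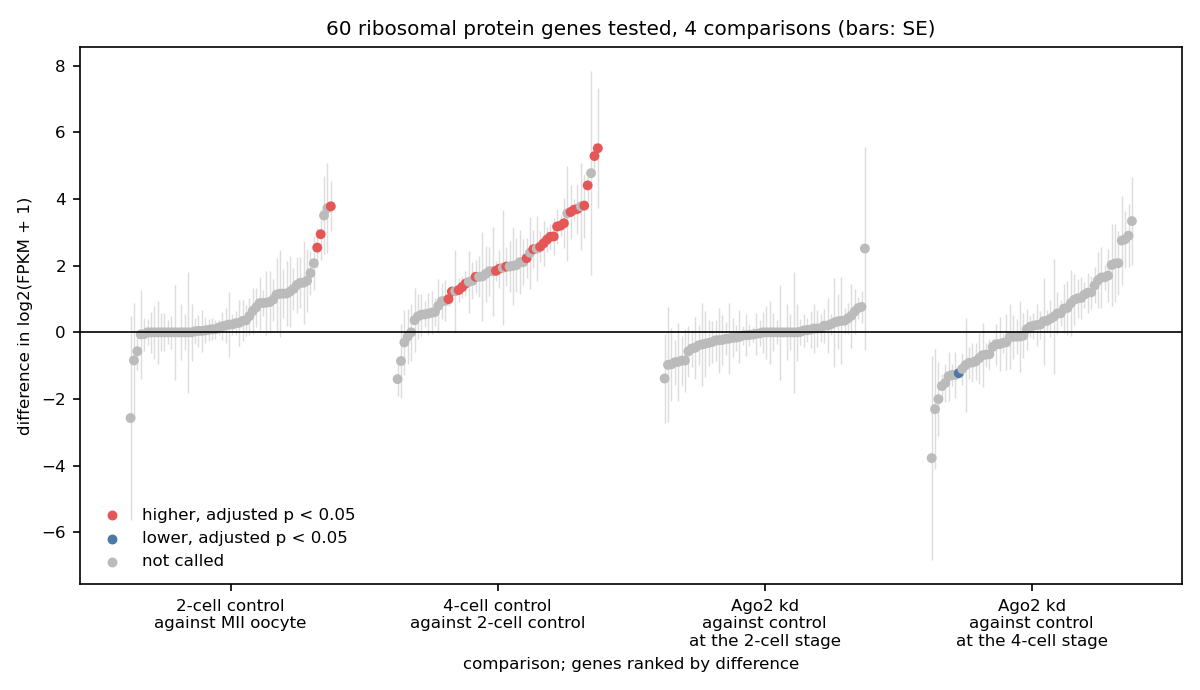
Difference in log2(FPKM + 1) (y axis, bars SE) of the 60 ribosomal protein genes tested, ranked within each of 4 comparisons (x axis). Red points were called higher and blue points lower at an adjusted p below 0.05: 3 and 0 for 2-cell control against MII oocyte, 26 and 0 for 4-cell against 2-cell control, 0 and 0 for Ago2 kd at the 2-cell stage, and 0 and 1 at the 4-cell stage.

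From 2-cell to 4-cell controls, 26 members rose and none fell (limma, with 35 higher and 1 lower before adjustment). This is 33.3% of all 78 members, of which 18 were not tested, and 43.3% of the 60 tested members. Among all genes tested, 21.1% were called higher and 17.5% lower, a split of 1841 to 1529 that turned to 1435 to 1639 with libraries scaled to the same median, 1660 to 1778 with the same sum and 1523 to 1677 after quantile normalization. The 26 were 16 large and 10 small subunit genes, 23 of them core genes and 3 paralogues. The median difference was 1.53 over all 78 members and 0 over all rows of the table, and 1.88 over the 60 tested members against 0.24 over all genes tested. The library that was left out mattered, since 13 members were called without 2-cell control replicate 1 and 14 without 4-cell control replicate 1. Under these 3 scalings 22, 25 and 22 members were called higher.

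By the fitted difference, the rises were led by Rps3a1, Rps15a, Rpl8, Rps26 and Rpl7l1. Of these, Rps15a was called under every alternative run. Rps3a1 was not called in 8 of the 10 fits that left out a library, nor without the filter or with the replicate block. Rps26 was not called in 3 of the 10 fits, nor with a pseudocount of 0.1 or the same sum, and Rpl7l1 was not called without 4-cell control replicate 1 or with that pseudocount. With zeros as missing, Rps3a1 and Rpl8 could not be fitted. Rps15a (ENSMUSG00000008683.16, chr7:118104372-118116188), a small subunit protein, had 0.243 and 0 FPKM in 2-cell controls and 33.1 and 54.4 FPKM in 4-cell controls, a difference of 5.29 on the log2(FPKM + 1) scale (SE 0.39, adjusted p = 0.00015, limma with Benjamini-Hochberg adjustment). Its MII oocyte libraries held 0.148 and 0 FPKM. With its near-identical copies added, Rps15a had 90.6 and 166 FPKM in MII oocytes, 59.7 and 94.8 FPKM in 2-cell and 309 and 343 FPKM in 4-cell controls. Rps3a1 (ENSMUSG00000028081.6, chr3:86137940-86142702), a small subunit protein near the mRNA exit site, was listed at 0 in all 6 MII oocyte and 2-cell libraries and had 74.7 and 26.8 FPKM in 4-cell controls (adjusted p = 0.0488, limma). Rpl8 (ENSMUSG00000003970.9, chr15:76904078-76906314), a large subunit protein close to the peptidyl transferase centre, was listed at 0 in both MII oocyte and both 2-cell control libraries and had 23.5 and 17.4 FPKM in 4-cell controls (adjusted p = 0.000752, limma). No fold is given for Rps3a1 and Rpl8 because their 2-cell controls were listed at 0. Rps26 (ENSMUSG00000025362.6, chr10:128624534-128626747), a small subunit protein at the mRNA exit channel, had 0 and 2.43 FPKM in 2-cell controls and 23.0 and 26.8 FPKM in 4-cell controls, a difference of 3.80 (SE 0.96, adjusted p = 0.0199, limma). Rps9 and Rps14, which had already risen by the 2-cell stage, rose again, Rps9 to 151 and 154 FPKM (difference 3.27, SE 0.75, adjusted p = 0.0135, limma) and Rps14 to 74.5 and 95.4 FPKM (difference 2.22, SE 0.60, adjusted p = 0.0256, limma).

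The proteins of the ribosomal stalk, which recruits translation factors, did not share 1 pattern. Rplp1 rose from 2.51 and 7.25 FPKM in 2-cell controls to 61.0 and 68.7 FPKM in 4-cell controls, by 3.61 (SE 0.82, adjusted p = 0.013, limma). Its base Rplp0 had 27.4 and 27.9 FPKM in MII oocytes, 6.02 and 35.5 in 2-cell controls and 54.9 and 65.8 in 4-cell controls and was not called. Rplp2, the partner of Rplp1, had 0.728 and 0.637 FPKM in MII oocytes, 3.91 and 0.933 in 2-cell controls and 3.73 and 5.01 in 4-cell controls and was not called either. Rplp0 was thus the highest of these 3 in oocytes, and in 4-cell controls it stood with Rplp1.
Rpl5 and Rpl11, which join the small ribosomal RNA of the large subunit and also bind the ubiquitin ligase Mdm2, were low. Rpl5 was listed at 0 in all MII oocyte and 2-cell libraries and had 1.46 and 1.36 FPKM in 4-cell controls, a called rise (adjusted p = 0.0304, limma). Rpl11 had 1.11 and 0 FPKM there and was not called. Rpl23, another large subunit protein that binds Mdm2, had 1.30 and 2.71 FPKM in 2-cell and 9.44 and 0.356 FPKM in 4-cell controls, which overlap.

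Of the large subunit proteins with other known roles, Rpl10, which is added late in assembly, rose from 1.22 and 4.28 FPKM in 2-cell to 21.9 and 19.7 FPKM in 4-cell controls, by 2.67 (SE 0.67, adjusted p = 0.019, limma). Rpl3, at the peptidyl transferase centre, reached at most 0.0307 FPKM in any library. Rpl23a, at the exit of the peptide tunnel, had at most 0.788 FPKM, and Rpl38, needed for the translation of Hox mRNAs, was listed at 0 throughout. These 3 genes did not pass the filter. With copies added, Rpl3 had 190 and 116 FPKM, Rpl23a 108 and 100 FPKM and Rpl38 21.2 and 18.9 FPKM in 4-cell controls.
Among small subunit proteins, Rps3, at the mRNA entry site, had 0.656 and 0.319 FPKM in MII oocytes, 12.1 and 28.1 in 2-cell controls and 316 and 11.3 in 4-cell controls, and the spread of the 4-cell controls left it uncalled (adjusted p = 0.362, limma). Rps2, its neighbour there, had 1.62 and 3.20 FPKM in MII oocytes, 3.35 and 11.1 in 2-cell controls and 9.59 and 0.513 in 4-cell controls. Rps19, the gene most often mutated in Diamond-Blackfan anaemia, rose from 0.0567 and 0.00486 FPKM in 2-cell to 1.25 and 3.76 FPKM in 4-cell controls (adjusted p = 0.0342, limma). Rps27a, made as a fusion with ubiquitin, had 0.0211 and 0 FPKM in MII oocytes, 0.549 and 2.30 in 2-cell controls and 7.39 and 6.70 in 4-cell controls and was not called (adjusted p = 0.0923, limma). Rps6, which growth signals phosphorylate, was listed at 0 in 8 libraries and had 0 and 0.452 FPKM in 4-cell controls. Rpsa, also known as the laminin receptor, was listed at 0 in all MII oocyte, 2-cell and 4-cell control libraries. With copies added, Rps6 had 1242 and 1283 FPKM and Rpsa 134 and 109 FPKM in 4-cell controls.

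The 6 named paralogues included the highest of all members. Rps27l (ENSMUSG00000036781.13, chr9:66946086-66949516), a paralogue of Rps27 that DNA damage is known to induce, had 281 and 416 FPKM in MII oocytes, 289 and 375 in 2-cell controls and 113 and 136 in 4-cell controls. Its partner Rps27 had 0 and 0 FPKM in MII oocytes, 0.865 and 1.69 in 2-cell controls and 1.89 and 0.142 in 4-cell controls. With its copies added, Rps27 had 69.1 and 75.5 FPKM in 4-cell controls. Rps27l was above Rps27 in every library, with or without these copies. The 4-cell controls of Rps27l lay below all its MII oocyte and 2-cell libraries. That difference of -1.40 (SE 0.50) missed the threshold (adjusted p = 0.0639, limma), and the gene was called lower with the libraries scaled to the same median or the same sum and after quantile normalization.
Rpl7l1, a nucleolar paralogue of Rpl7, was above Rpl7 in 9 of the 10 libraries. It rose further from 18.6 and 16.8 FPKM in 2-cell controls to 289 and 202 FPKM in 4-cell controls, by 3.70 (SE 0.76, adjusted p = 0.0091, limma). Rpl7 went up from 0 and 0.0434 to 4.14 and 9.83 FPKM (its adjusted p = 0.00173, limma). With its copy added, Rpl7 had 55.2 and 38.5 FPKM in 4-cell controls. Rpl22l1, the paralogue of Rpl22, rose from 0.261 and 0.115 FPKM to 9.42 and 10.4 FPKM, by 3.20 (SE 0.31, adjusted p = 0.000455, limma). Rpl22 itself was above it in every library, at 5.54 and 2.49 FPKM in 2-cell and 31.8 and 36.5 FPKM in 4-cell controls, and also rose (adjusted p = 0.00673, limma). Rpl39l, best known from testis, rose from 1.25 and 2.28 FPKM to 7.58 and 5.49 FPKM, by 1.46 (SE 0.38, adjusted p = 0.0227, limma). Rpl36al had 0.696 and 1.42 FPKM in MII oocytes, 0.468 and 13.0 in 2-cell controls and 77.1 and 48.4 in 4-cell controls and was not called (adjusted p = 0.0587, limma). Rpl10l, which replaces the X-linked Rpl10 in male meiosis, had 3.87 and 1.97 FPKM in 4-cell controls, below the 21.9 and 19.7 FPKM of Rpl10. Of the members annotated as pseudogenes, Rpl6l had 0.300 and 0.586 FPKM in MII oocytes, 11.6 and 20.1 in 2-cell controls and 209 and 19.1 in 4-cell controls, Rps4l had 1.36 and 4.13 FPKM in MII oocytes, 4.15 and 17.4 in 2-cell controls and 38.1 and 36.5 in 4-cell controls, and Rps12l1 was above 0 in 1 library only, at 0.619 FPKM.

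**Figure D4:**
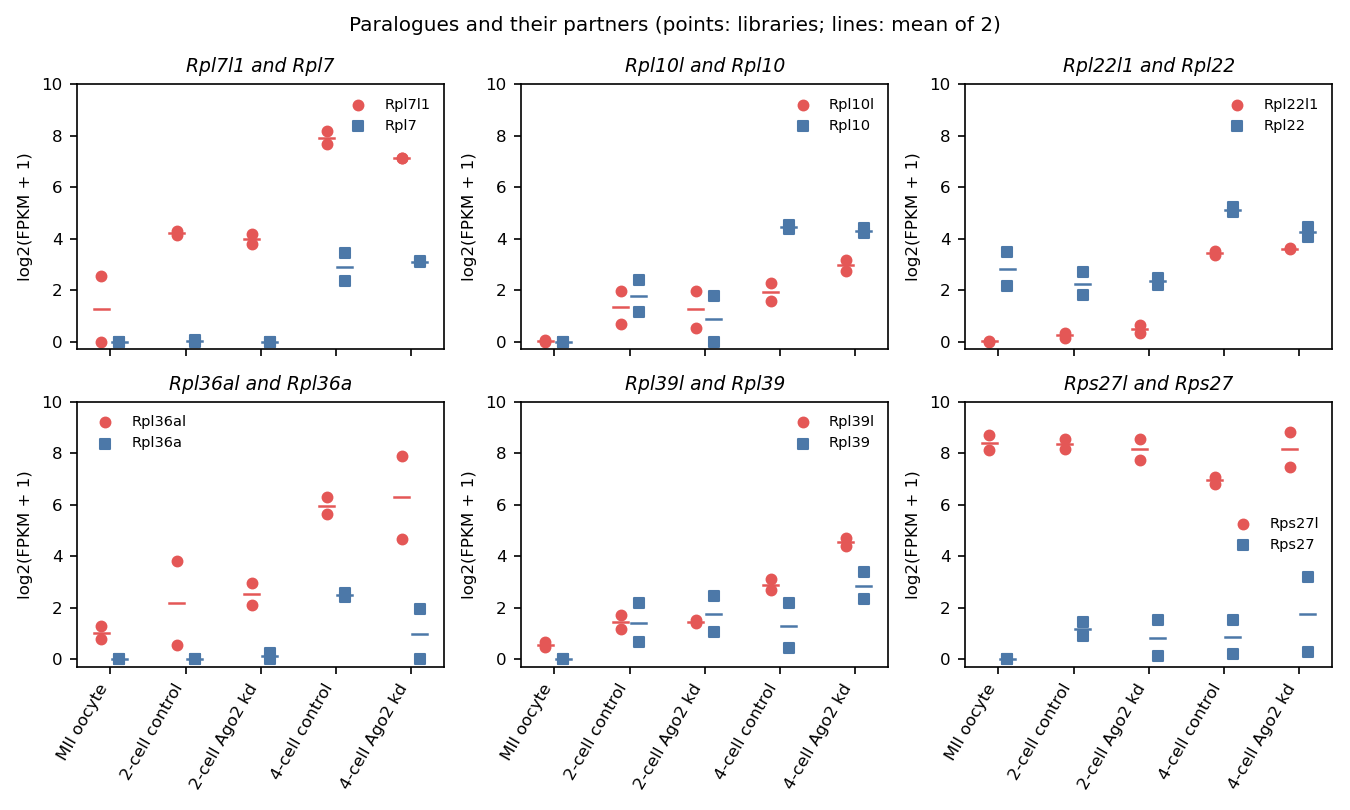
log2(FPKM + 1) (y axes) of 6 paralogues (red circles) and their partners (blue squares) in the 5 groups (x axis), with points for libraries and lines for the mean of 2. Rps27l lies above Rps27 in all 10 libraries and Rpl22 above Rpl22l1 in all 10, while Rpl7l1 lies above Rpl7 in 9.

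Many members have near-identical processed copies elsewhere in the genome, and the table lists these as rows of their own. There were 200 rows named as pseudogenes of the family and 4 retrocopies (Rps27rt, Rpl37rt, Rps3a2 and Rps3a3). Of these rows, 165 are copies of a member, and 39 are named for a gene that has no row among the members, such as Rpl17. Sums and tests over the copy rows include these 39. Reads of a gene and of its copies cannot be told apart where the sequences are the same, so the level of each of the 54 members that has such a row is uncertain. Copies were found by name only, so the same may hold for the other members, whose copies under other names were not searched for. The pseudogene rows summed to 515 and 608 FPKM in MII oocytes, 560.1 and 907 FPKM in 2-cell controls and 4798 and 4647 FPKM in 4-cell controls, more than the 78 members themselves in each of these libraries. In 36 of the 54 families a copy stood above the gene in 4-cell controls. At least 10 FPKM in both 4-cell controls was reached by 35 of the 200 pseudogene rows and by 19 of the 78 members, and this was not counted over all rows.

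Of the copies aligned, the row for Rps6 had the highest mean in 4-cell controls. The row Rps6-ps4 (ENSMUSG00000081406.4, chr2:75191073-75191822) had 7.77 and 10.2 FPKM in MII oocytes, 96.7 and 205 in 2-cell controls and 1240.0 and 1279 in 4-cell controls, where Rps6 had 0 and 0.452 FPKM. The 750 coding bases of Rps6 occur in Rps6-ps4 without a difference. The first 60 coding bases of the gene and its copy are shown for 2 families, with the bases that differ in capitals (gene from GENCODE M21, copy with its position on GRCm38).
Rps6 and Rps6-ps4 (chr2:75191763-75191822, minus strand): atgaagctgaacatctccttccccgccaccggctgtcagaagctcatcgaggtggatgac
Rps26: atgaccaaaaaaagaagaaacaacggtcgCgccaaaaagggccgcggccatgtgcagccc
Rps26-ps1 (chr8:107439503-107439562, minus strand): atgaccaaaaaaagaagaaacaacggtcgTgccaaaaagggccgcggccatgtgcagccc
Rps26-ps1 differed from Rps26 at 2 of 348 coding bases and had 225 and 238 FPKM in 4-cell controls, against 23.0 and 26.8 FPKM for the gene. Rps2-ps13 differed at 7 of 882 coding bases and had 359 and 669 FPKM against 9.59 and 0.513 FPKM. The retrocopy Rps3a2 differed from Rps3a1 at 7 of 795 coding bases and had 1062 and 970.0 FPKM against 74.7 and 26.8 FPKM. Other copies with a high mean over all libraries were Rps15a-ps7, with 223 and 249 FPKM, and Rps13-ps2, with 247 and 182 FPKM. Over the 164 copies that could be aligned, identity to the gene's coding sequence had a median of 97.3%. The 39 copies with a mean of at least 10 FPKM in 4-cell controls had a median of 99.1%, and 6 of them differed at no base. Rpl14, listed at 0 in every library, had a copy row at 204 and 159.9 FPKM in 4-cell controls.

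**Figure D5:**
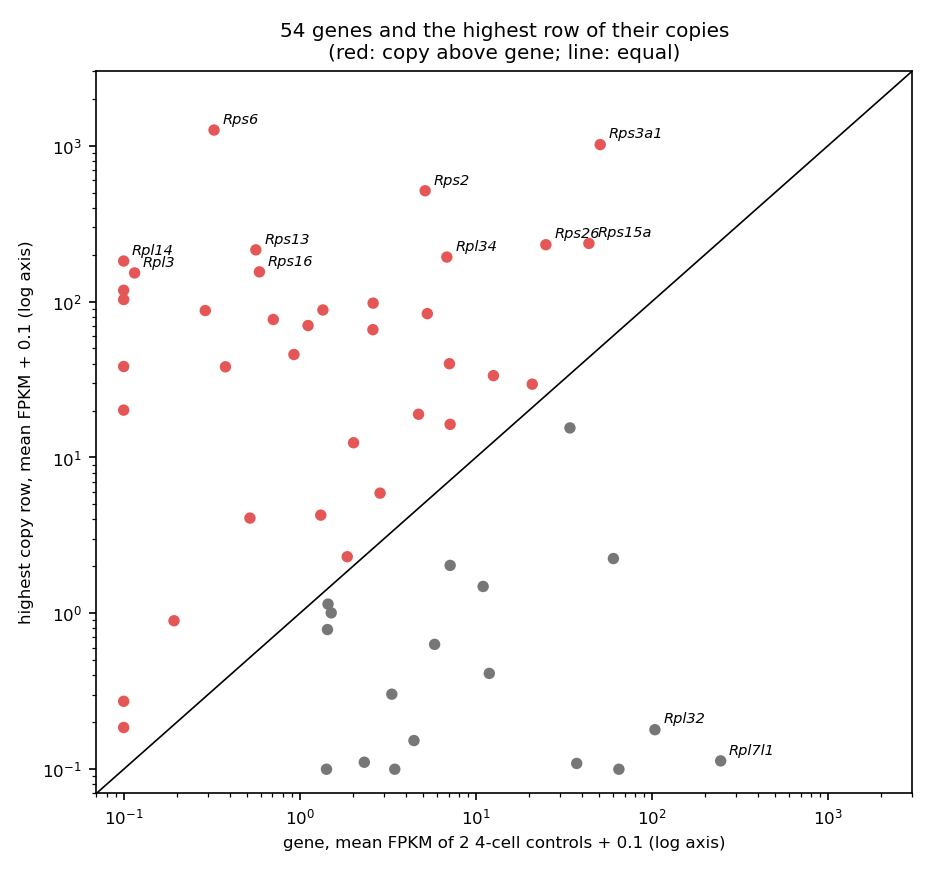
Mean FPKM of 2 4-cell control libraries, plus 0.1, of 54 ribosomal protein genes (x axis, log scale) and of the highest row among their copies (y axis, log scale), with the line of equal values. The 36 red points lie above the line, with Rps6 (0.226 FPKM for the gene and 1259.6 FPKM for its copy) and Rps3a1 (50.8 and 1016 FPKM) highest.

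The copy rows were tested beside the members in the same fit, where 86 of them passed the filter. From MII oocytes to 2-cell controls 13 rose and 1 fell, and from 2-cell to 4-cell controls 52 rose and 1 fell. The row that fell from the 2-cell to the 4-cell stage was Rpl17-ps5, from 127 and 115 FPKM to 17.3 and 18.7 FPKM (difference -2.68, SE 0.33, adjusted p = 0.00113, limma), a row named here after its values were seen. When each member was summed with its copies, an alternative chosen after seeing the data, 75 families passed the filter, of which 16 rose by the 2-cell stage and 39 between the 2-cell and 4-cell stages, and none fell at either step. Of all rows tested in that fit, 6.59% were called higher and 14.3% lower at the first step, and 20.8% higher and 17.6% lower at the second. Of the 26 members called in the second step, 24 were also called with their copies added. Rps6 with its copies rose at both steps, and Rps3a1, Rps26 and Rpl14 with theirs rose from the 2-cell to the 4-cell stage.

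To ask whether the mRNAs depended on Argonaute 2, Ago2 kd and control embryos were compared at each stage. At the 2-cell stage no member was called (limma, lowest adjusted p = 0.938, and 0 in either direction before adjustment at p below 0.05), while 0.332% of all genes tested were called higher and 0.218% lower. The Ago2 kd libraries held 321 and 748 FPKM over all members, against 413 and 743 FPKM in the controls. For example, Rps9 had 3.94 and 14.8 FPKM in Ago2 kd and 7.77 and 27.9 FPKM in control embryos, and Rps27l had 216 and 382 FPKM in the former and 289 and 375 FPKM in the latter. At this stage the first library of each group was the lower of its pair in summed level, and the groups overlapped. The median difference was 0 over all members and over all rows.

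At the 4-cell stage no member was called higher and 1, Rps18, was called lower, where 7 were higher and 4 lower before adjustment. Of all genes tested, 1.23% were called higher and 2.77% lower. Rps18 (ENSMUSG00000008668.15, chr17:33951999-33956001), a protein of the head of the small subunit, had 1.27 and 1.41 FPKM in controls and a listed 0 in each Ago2 kd library (adjusted p = 0.00483, limma with Benjamini-Hochberg adjustment). It was also listed at 0 in all 6 MII oocyte and 2-cell libraries, so it exceeded 1 FPKM in the 4-cell controls alone, and the call rests on 2 low values. It was not called with only the 4 libraries compared (adjusted p = 0.157, limma). In the test of the difference between the effects at both stages, which called 2.28% of all genes tested, Rps18 was the 1 member called. Since all its 2-cell values were listed at 0, that test repeats the comparison at the 4-cell stage and adds nothing to it. These 2 values also carried the gene through the filter.
The 4-cell Ago2 kd libraries were unlike each other, with 2014 and 4239 FPKM over all members against 2322 and 1462 FPKM in the controls, and with 22 and 13 members listed at 0 against 12 and 14. As a share of all FPKM, the members held 0.869% and 1.30% after Ago2 kd and 0.864% and 0.606% in controls. Members and copy rows together held 4.16% and 5.57% against 3.11% and 3.01%. These shares did not overlap between the groups, and their difference was not tested. With copies summed, the median difference over 75 families was 0.71, with 1 called lower and none higher. Library 1 of the Ago2 kd group listed Rps3a1 at 0, where library 2 had 85.6 FPKM. In library 2, Rpl6 had 132 FPKM, where the other 4-cell libraries had 0.284 to 16.1 FPKM (this gene was named after its values were seen). Without 4-cell Ago2 kd replicate 2, 11 members were called lower and 1 higher, and without 4-cell control replicate 1, 3 were called higher, so the count of members that differ depends on which library is kept. Mitochondrial genes took 11.1% and 13.0% of the FPKM in the Ago2 kd libraries and 10.8% and 5.22% in the controls, and the part of these differences in the values of the members was not tested.
Rpl39l stood at 20.1 and 25.0 FPKM after Ago2 kd, where the controls had 7.58 and 5.49 FPKM, a difference of 1.65 that was not called (SE 0.38, adjusted p = 0.0723, limma). Rpsa was listed at 0 in both controls and had 1.38 and 19.1 FPKM in Ago2 kd embryos (adjusted p = 0.162, limma). With its copies added, Rpsa had 134 and 109 FPKM in controls and 142 and 211 FPKM in Ago2 kd embryos, so its own row does not show absence in controls. Rpl23 had 28.7 and 25.5 against 9.44 and 0.356 FPKM (adjusted p = 0.192, limma). Rps27l had 179 and 456 against 113 and 136 FPKM (adjusted p = 0.315, limma), and Rpl7l1 had 141 and 141 against 289 and 202 FPKM (adjusted p = 0.743, limma). None of these 5 genes passed the threshold. Of the tested copy rows, 1 was called higher after Ago2 kd at this stage, Rpl17-ps5, at 89.8 and 149 FPKM against 17.3 and 18.7 FPKM (adjusted p = 0.0067, limma).

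Genes that work with the ribosomal proteins were read from the 4-cell against 2-cell control comparison in the same way, where 21.1% of all genes tested were called higher and 17.5% lower. Of the ribosomal proteins whose names fall outside the rule, Fau and Gnb2l1 (the older name of Rack1) rose, Fau from 0 and 0 to 4.45 and 4.58 FPKM (adjusted p = 0.00103, limma). Of 14 tested genes of other mRNAs known for a TOP motif, 6 rose and none fell. Eef2, the translocase of elongation, was listed at 0 in all 6 MII oocyte and 2-cell libraries and had 115 and 127 FPKM in 4-cell controls (adjusted p = 0.00339, limma). Eif3e, Btf3 and Tpt1 of this list had fallen from MII oocytes to 2-cell controls, Eif3e from 125 and 135 FPKM to a listed 0 in both libraries. Dedicated chaperones and loading factors of ribosomal proteins rose in 5 of 9 cases (Grwd1, Ltv1, Rpf2, Tsr2 and Rrs1), with none lower. Grwd1, the chaperone of Rpl3, had 0 and 11.0 FPKM in 2-cell and 606 and 589 FPKM in 4-cell controls, and Tsr2, the escort of Rps26, had 0.175 and 0 FPKM in the former and 29.6 and 24.1 FPKM in the latter. Of 10 tested genes of mTOR signalling and the La-related proteins, 3 (Larp1b, Eif4ebp2 and Rheb) rose and none fell, which is not far from the share of all genes. Rheb had fallen before, from 633 and 606 FPKM in MII oocytes to 86.9 and 53.3 FPKM in 2-cell controls. Larp1 itself was uneven, at 0.0425 and 23.8 FPKM in 4-cell controls. None of the genes in these lists was called between Ago2 kd and control embryos at either stage.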

How the data were processed

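RNA-seq libraries of MII oocytes and of 2-cell and 4-cell control and Ago2 kd embryos (2 each, 10 in all) were analysed from the FPKM table that the authors deposited. Per the labels and the study's methods, the authors trimmed reads with Trim Galore, aligned them to mm10 with HISAT2 (2.1.0) after base calling with CASAVA (1.4), and computed FPKM with StringTie. How the transcripts of a gene were reduced to 1 row is not given in the sources used here. Depth is unknown, since FPKM hold no counts. The study's own test on counts was not repeated.

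FPKM were compared as log2(FPKM + 1) with limma 3.58.1 (R 4.3.3), with 5 group means over all 10 libraries, 5 residual degrees of freedom and a mean-variance trend. The test, two-sided, was kept to genes that reached 1 FPKM in 2 or more libraries, with Benjamini-Hochberg adjustment over all of them and a threshold of 0.05. The fit was tested on simulated data. Members, gene lists and rules were chosen with earlier results of these data known. Genes named with values were the 5 largest called rises and falls of each comparison, the 5 highest and 5 lowest members, the paralogues and the members with a known special role, called genes of the other lists (at most 4 a list and comparison) and the 5 highest pseudogene rows. Any other gene was named after its values were seen.

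Promoters came from RefSeq (GRCm38.p6). Copies were aligned to coding sequences of GENCODE M21 with edlib 1.3.9.post1, and positions are on GRCm38. Alternatives were another pseudocount (0.1), no filter, 3 scalings, a replicate block, fits of the compared groups alone, listed zeros as missing, each library left out, and copies summed with their gene. Results that need certain genes are not reported here.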

Additional observations from a re-analysis of the deposited data

Results flagged for a closer look

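Rps18 was picked out by the test of the difference between the Ago2 kd effects at the 4-cell and 2-cell stages. The effect at the 4-cell stage minus that at the 2-cell stage was -1.22 on the log2(FPKM + 1) scale (adjusted p = 0.0310, limma with Benjamini-Hochberg adjustment), and over the alternatives the adjusted p ranged from 0.0125 to 0.0996. All 4 2-cell libraries were listed at 0, so the effect there was 0 by construction and the value repeats the difference at the 4-cell stage, between 2 controls just above 1 FPKM and 2 Ago2 kd libraries listed at 0. It is no separate evidence that the stages differ.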

How the results depend on the processing

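None of the 19 called comparisons of named members changed its direction under an alternative that could be fitted. The 3 members higher in 2-cell controls than in MII oocytes became 1 without the filter, 7 with libraries scaled to the same sum, 5 with only the groups compared, 16 with copies summed with their gene, and 0 to 4 with 1 library left out. Among all genes the split of this comparison turned under 1 scaling. It was 571 higher and 1240 lower, and became 1054 and 590 with the same sum and 707 and 782 after quantile normalization. The split of all genes from 2-cell to 4-cell controls, 1841 higher and 1529 lower, turned under all 3 scalings (1435 and 1639 with the same median, 1660 and 1778 with the same sum, 1523 and 1677 after quantile normalization). The 26 members higher in 4-cell than in 2-cell controls became 13 to 36 with 1 library left out (36 without either 4-cell Ago2 kd library), 39 with copies summed, and 19 to 27 otherwise. The count of members lower there went from 0 to 1 (Rps27l) with the same median, the same sum, quantile normalization, the replicate block and only the groups compared, and was 0 to 1 with 1 library left out. At the 4-cell stage, the count higher after Ago2 kd went from 0 to 1 (Rpsa) with the pseudocount of 0.1 and was 0 to 3 with 1 library left out. The count lower went from 1 to 0 with only the groups compared and with zeros as missing, where Rps18 could not be fitted, and was 1 to 11 with 1 library left out. The difference between the stages went from 1 to 0 members with the same median, quantile normalization, the replicate block, zeros as missing and copies summed, and was 0 to 8 with 1 library left out. At the 2-cell stage no member was called under any alternative.

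Replicate numbers were shared by all groups, and deviations of same-numbered libraries correlated at only -0.093 to 0.092 over 10 pairs of groups. These correlations gave no sign of a pairing by number. They cannot exclude that same-numbered libraries were collected or handled together, which is unknown. With the replicate block 27 members were higher in 4-cell than in 2-cell controls. FPKM without counts limit what low values can show.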
